A study of Homo sapiens with 18 samples.

Results

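The HOX gene clusters were examined in accessible-chromatin peak lists of PC9, an established human lung adenocarcinoma cell line driven by mutant EGFR. The listed genes were 38 HOX genes of the HOXA, HOXB, HOXC and HOXD clusters, with 10, 10, 9 and 9 genes. Peaks were taken in hg19 windows that hold each cluster body and 50 kb on either side, and on chromosome 7 the window ran on to 27500000, beyond the HOXA13 end. Merging overlapping peaks of all libraries gave 79483 regions in the genome, and 58 of them lay in the HOX windows. The rule used positions alone and no measured value.

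The study had 6 groups, with 3 ATAC-seq libraries each, in an assay where a transposase cuts and tags open DNA. PC9 denotes the unsorted line in vehicle (DMSO). DTP denotes drug-tolerant persisters, the cells that survived 8 days of erlotinib, an EGFR kinase inhibitor, at 1 µM. ALDH_Low_DMSO, ALDH_High_DMSO, ALDH_Low_Erl and ALDH_High_Erl received vehicle or the drug at 1 µM, for 12 h in either case, before sorting by Aldefluor, a fluorescent assay of aldehyde dehydrogenase (ALDH) activity, into low and high fractions. All groups came from a single cell line, and the sort followed the treatment, so a fraction is defined by its activity after the drug. The letters a, b and c name the libraries of a group. Whether they were separate cultures is not given, and the p-values below therefore measure only a spread between libraries that may be technical.

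HOX genes encode homeodomain transcription factors that set position along the body axis. They sit in 4 clusters in which gene order follows the order of expression along the embryo. Polycomb complexes hold silent stretches of a cluster in closed chromatin, Trithorax-group proteins keep active stretches open, and CTCF-bound boundaries separate them. Adult lung is known for keeping expression of HOXA and HOXB genes from the anterior and middle parts of the clusters. In these files no region was assigned to a gene, since no hg19 annotation was used here, and a region is described by its place between the ends of its cluster.

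Of the 58 regions, 30 lay in the HOXA window, 15 in HOXB, 8 in HOXC and 5 in HOXD. The bodies, which span 118, 201, 118 and 99 kb, held 9, 10, 8 and 5 of them, or 32 in all, and 15 lay in the flanks and 11 in the HOXA extension. No region lay outside the body in the HOXC or the HOXD window. All 18 libraries held 8 of the 58 regions (13.8%), against 17.7% of all regions. A single library held 16 of them (27.6%), against 21.2% of all regions. The median width was 1032 bp, and over all regions 999 bp. Only 2 HOX regions reached 3 kb (3.45%, against 1.73% of all regions), and both lay in the HOXA body.

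The libraries differed in list length, from 26225 to 45241 peaks, and the lowest score over all lists was 70. Read depth is unknown. A region with no peak was not called in that list, at whatever depth the library had, and is not thereby shown to be closed. The ALDH_Low_DMSO lists were the shortest, at 26343 ± 108 peaks (SD, n = 3), and held 13, 15 and 19 HOX regions. The DTP lists were the longest, at 44106 ± 1658 peaks (SD, n = 3), and held 27, 33 and 29. The part of list length in the group comparisons below was not tested, except by the alternative that trims every list to 26225 peaks.

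**Figure D1:**
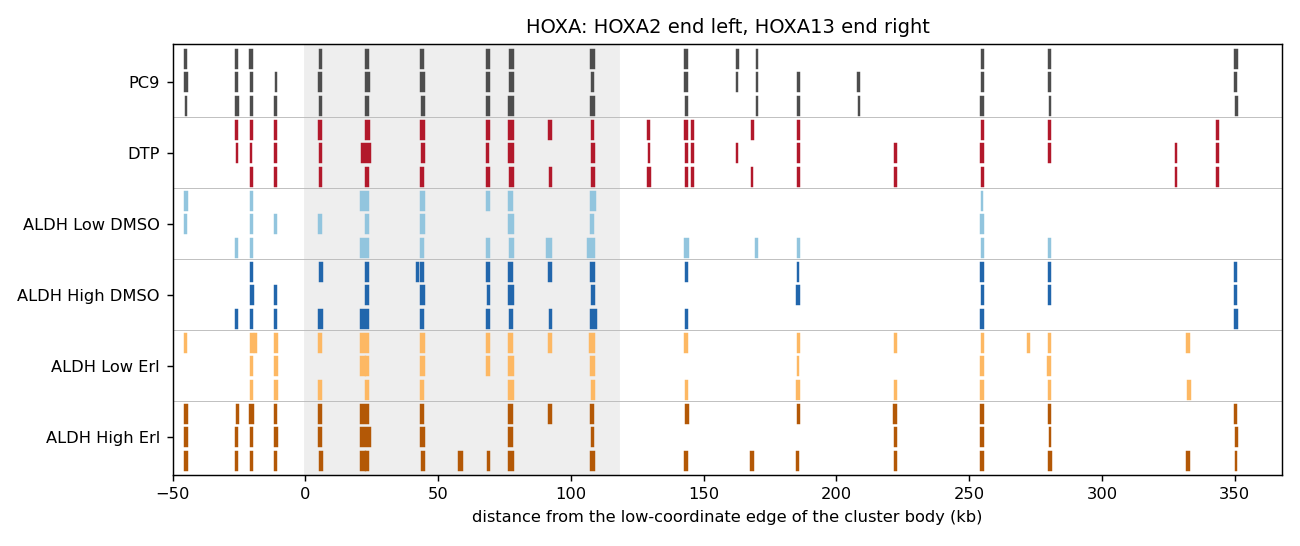
Peaks of the 18 libraries in the HOXA window, with distance from the low-coordinate edge of the cluster body on the horizontal axis (kb), 1 row per library (a to c from top to bottom in each group), 1 bar per peak and the body shaded. Columns of bars at 23, 44, 77 and 108 kb run through all 18 rows, and bars at 129, 146 and 343 kb appear in the 3 DTP rows alone.

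The cluster genes are represented here by their RefSeq promoter sequences, since hg19 sequence of the regions was not used here. The GRCh38.p14 promoter table matched 20 of the 38 listed genes with 27 promoters, and 18 genes were not matched. The matched genes were 9 of HOXA, 1 of HOXB, 2 of HOXC and 8 of HOXD, so the shares below describe mainly HOXA and HOXD. In the 250 bases before the start, the median number of CpG dinucleotides was 19 in HOX promoters and 11 over all 35116 promoters, and the median GC content was 58.8% and 58%. After the sequences had been read, 2 short motifs were counted on both strands. The first was the E-box in either of 2 forms, namely CACGTG, which reads alike on both strands, and CATGTG, whose complement on the opposite strand is CACATG. The other was CCAAT, whose complement on the opposite strand is ATTGG. An E-box of either form stood in 16 of 27 HOX promoters (59.3%, against 15.2% of all promoters), CCAAT in 18 (66.7%, against 32%) and both in 13 (48.1%, against 4.9%). Some of the 27 promoters belong to the same gene or overlap, and the shares are a description of the sequences alone. Since the motifs were chosen after reading, a share above that of all promoters could follow from the choice and is no test. The lowest-numbered gene with both motifs is shown for each cluster, with the motifs in capitals, to show how the pair is placed near the start. Each runs 5′ to 3′ on the gene's strand. HOXA2 is chr7:27102684-27102933 on the minus strand, HOXB1 is chr17:48531012-48531261 on the minus strand, HOXC4 is chr12:54016638-54016887 on the plus strand and HOXD1 is chr2:176188418-176188667 on the plus strand, all in GRCh38.p14. These positions are not those of the hg19 regions.
HOXA2: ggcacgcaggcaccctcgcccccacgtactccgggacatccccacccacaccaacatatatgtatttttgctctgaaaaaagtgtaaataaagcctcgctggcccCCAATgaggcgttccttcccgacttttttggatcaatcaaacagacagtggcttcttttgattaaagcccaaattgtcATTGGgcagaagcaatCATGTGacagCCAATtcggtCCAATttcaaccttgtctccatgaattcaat
HOXB1: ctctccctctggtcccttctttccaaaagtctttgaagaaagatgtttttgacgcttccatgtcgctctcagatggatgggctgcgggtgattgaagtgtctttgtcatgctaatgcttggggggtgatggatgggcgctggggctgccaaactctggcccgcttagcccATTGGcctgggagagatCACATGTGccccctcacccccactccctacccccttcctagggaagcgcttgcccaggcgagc
HOXC4: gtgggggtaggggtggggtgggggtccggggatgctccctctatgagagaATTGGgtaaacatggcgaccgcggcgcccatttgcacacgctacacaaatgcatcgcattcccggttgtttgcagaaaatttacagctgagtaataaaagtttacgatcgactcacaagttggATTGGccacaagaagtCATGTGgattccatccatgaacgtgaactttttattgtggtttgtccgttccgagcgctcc
HOXD1: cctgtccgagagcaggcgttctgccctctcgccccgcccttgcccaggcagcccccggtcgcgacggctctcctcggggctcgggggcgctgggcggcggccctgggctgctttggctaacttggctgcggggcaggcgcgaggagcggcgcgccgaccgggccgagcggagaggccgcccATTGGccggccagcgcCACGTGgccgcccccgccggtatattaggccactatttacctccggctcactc
In all 4 the E-box lies downstream of a CCAAT motif on either strand, but in HOXA2 further CCAAT motifs lie downstream of the E-box. The 4 were picked for holding both motifs, and the order in the other promoters was not examined. In HOXB1 the E-box is read on both strands, and the capitals join the overlapping matches. HOXA2 acts in the hindbrain and branchial arches, HOXB1 in hindbrain segment identity, and HOXC4 and HOXD1 are the lowest-numbered listed genes of their clusters.

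The HOXA body was the most covered of the 4. Peaks covered 8.63 ± 1.66 kb of it (SD, n = 18 libraries), or 7.31 ± 1.4%. The corresponding shares were 1.48 ± 0.696% for HOXB, 1.83 ± 0.982% for HOXC and 1.70 ± 0.554% for HOXD. The lowest HOXA share, 5.00% in ALDH_High_DMSO b, was above the highest share of any other body, 3.52% for HOXC in ALDH_Low_Erl a. The ranges of the other 3 bodies overlapped, and their order is not resolved. In covered kb, unlike in shares, HOXA was not fully separate. HOXB had 6.51 kb in ALDH_Low_Erl c, against 5.9 kb of HOXA in ALDH_High_DMSO b. All 18 libraries held 4 of the 9 HOXA body regions (44.4%), 0 of 10 in HOXB, 0 of 8 in HOXC and 1 of 5 in HOXD.

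**Figure D2:**
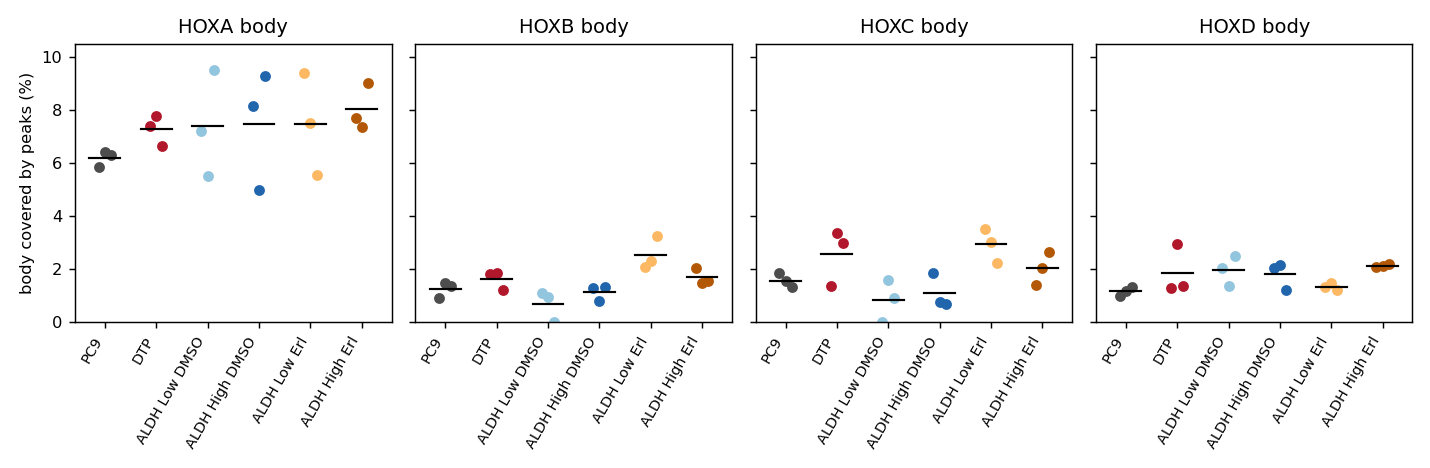
Share of each cluster body covered by peaks (%, vertical axis) in the 18 libraries, by group (horizontal axis). Points are libraries and the line is the mean of 3. HOXA points lie between 5.00% and 9.51%, above every point of the other clusters.

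The HOXA regions held by all 18 libraries stood at 19.1%, 37.3%, 65.5% and 91.4% of the way from the HOXA2 end to the HOXA13 end. The widest was chr7:27152543-27156461 (3919 bp), toward the HOXA2 end. Its peaks covered 995 to 1621 bp in 9 libraries and 2775 to 3668 bp in the other 9, of which 7 called it as 1 peak and 2 as a pair of narrower peaks. The bases covered were 1049, 1583 and 1091 bp in PC9 a, b and c, while DTP had 1621, 3633 and 1179 bp. In ALDH_Low_DMSO they were 2998, 1368 and 3074 bp, and in ALDH_High_DMSO 1444, 995 and 2974 bp. In ALDH_Low_Erl they were 2789, 2992 and 1190 bp, and in ALDH_High_Erl 2775, 3668 and 3128 bp. The pairs were called in ALDH_Low_Erl b (1630 and 1362 bp) and in ALDH_High_Erl c (1793 and 1335 bp). A single peak of at least 2775 bp was called in some libraries of every group but PC9, and in all 3 libraries of none.

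The region chr7:27175150-27176779 (1630 bp) was called at 1006 to 1503 bp in all 18 libraries. Scores are described by their percentile, the share of the peaks of the same list with a score at or below it. Since lists differ in length, percentiles are not compared between groups. The percentile of this region ran from 17.4 in ALDH_High_DMSO a to 85.3 in PC9 a. The region chr7:27208335-27210280 (1946 bp), in the part of the cluster toward HOXA13, had percentiles of 73.1, 69.7 and 73.2 in PC9, and 82.9, 88.7 and 86.9 in DTP. In ALDH_Low_DMSO they were 25.9, 34.4 and 47.3, and in ALDH_High_DMSO 61.1, 67.5 and 30.3. They were 71.7, 82.5 and 61.3 in ALDH_Low_Erl, and 69.6, 77.7 and 74.0 in ALDH_High_Erl. It ranked in the upper part of the list in 14 of the 18 libraries, by a percentile above 50, and below it in ALDH_Low_DMSO a, b and c and in ALDH_High_DMSO c. The region nearest the HOXA13 end, chr7:27238270-27241321 (3052 bp), was called at 877 to 2299 bp, with percentiles of 22.6 to 77.5.

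A pair of other HOXA body regions were held by 14 libraries each. The region chr7:27136680-27138197, nearest the HOXA2 end at 4.61% of the body, was held by all PC9, DTP and ALDH_High_Erl libraries, by 2 of 3 in ALDH_High_DMSO and in ALDH_Low_Erl, and by 1 in ALDH_Low_DMSO. The region chr7:27199928-27201255, past the middle of the body at 58.1%, was held by all PC9, DTP and ALDH_High_DMSO libraries, by 2 in ALDH_Low_DMSO and in ALDH_Low_Erl, and by 1 in ALDH_High_Erl. Neither separated any 2 groups compared.

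**Figure D3:**
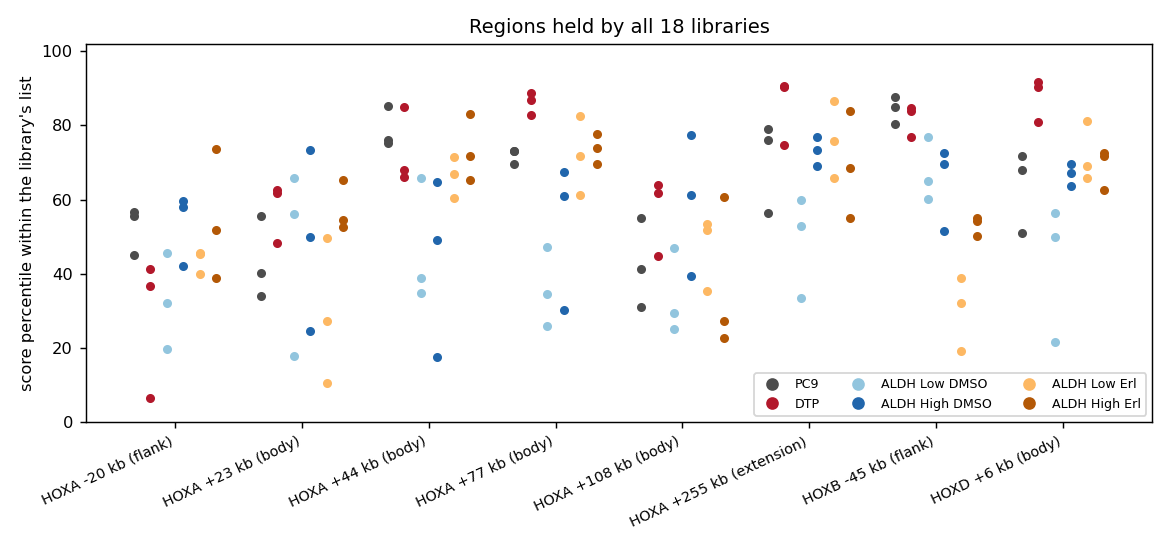
Score percentile (vertical axis) of the 8 HOX regions held by all 18 libraries, each named by its cluster and its distance from the low-coordinate edge of the body (horizontal axis). Points are libraries, coloured by group. Percentiles rank peaks within a list and, because lists differ in length, do not compare groups. Most regions range widely, for example from 17.4 to 85.3 for the HOXA region at 44 kb.

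In HOXB the 10 body regions lay between 28.3% and 74.5% of the way from HOXB1 to HOXB13, and no region lay closer to either end of the body. The most widely held was chr17:46702254-46704361 (2108 bp), near the middle of the body. It was held by 17 libraries, all but ALDH_Low_DMSO c. Its percentiles were 30.4, 5.44 and 52.7 in PC9, and 52.6, 47.8 and 45.9 in DTP. They were 41.9 and 46.5 in ALDH_Low_DMSO a and b, and 5.17, 18.9 and 2.72 in ALDH_High_DMSO. In ALDH_Low_Erl they were 76.7, 58.3 and 62.6, and in ALDH_High_Erl 39.6, 29.2 and 49.2. It ranked in the lower part of the list, below a percentile of 20, in PC9 b and in ALDH_High_DMSO a, b and c. The cut of 20 was not planned, and these ranks within a list do not compare groups. The region chr17:46662374-46663534 (1161 bp), at 28.3%, was held by 16 libraries, and in ALDH_Low_DMSO by library a alone. ALDH_Low_DMSO c held no region of the HOXB body, although its list of 26367 peaks was about as long as those of ALDH_Low_DMSO a and b (26438 and 26225).

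In HOXC the most widely held region was chr12:54388296-54390012 (1717 bp), in the middle of the body at 51.6% from the HOXC4 end. It was held by 17 libraries, all but ALDH_Low_DMSO a, which held no HOXC region at all. Its percentiles were 32.2, 48.6 and 65.6 in PC9, and 68.6, 76.1 and 80.3 in DTP. In the sorted libraries that held it they ran from 11.6 to 66.1. The region chr12:54331898-54333011, at the HOXC13 end of the body (99.6%), was held by all 3 libraries of PC9 and of ALDH_Low_Erl, by ALDH_High_Erl b and c, by DTP b, by ALDH_Low_DMSO b and by no ALDH_High_DMSO library. The region chr12:54411137-54412353, at 32.4%, was held by all ALDH_Low_Erl libraries, by DTP b and c, by 1 library in each of ALDH_Low_DMSO, ALDH_High_DMSO and ALDH_High_Erl, and by no PC9 library.

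HOXD held a single recurrent region, chr2:176961188-176963872 (2685 bp), at 94.4% of the way from HOXD1 to HOXD13, a gene that acts in the distal limb and the genital tract. It was held by all 18 libraries. PC9 a, b and c called it at widths of 958, 1138 and 1316 bp, DTP at 1249, 1448 and 1358 bp, and ALDH_Low_DMSO at 2006, 1326 and 1252 bp. The width was 2028, 1059 and 1187 bp in ALDH_High_DMSO, 1314, 1440 and 1207 bp in ALDH_Low_Erl, and 2042, 2098 and 2149 bp in ALDH_High_Erl. The ALDH_High_Erl widths exceeded those of all 15 other libraries. This was chosen after the widths were seen and was not tested. The percentiles ran from 21.5 in ALDH_Low_DMSO a to 91.8 in DTP a. The other 4 HOXD regions were each called in 1 library, 2 of them in DTP b.

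**Figure D4:**
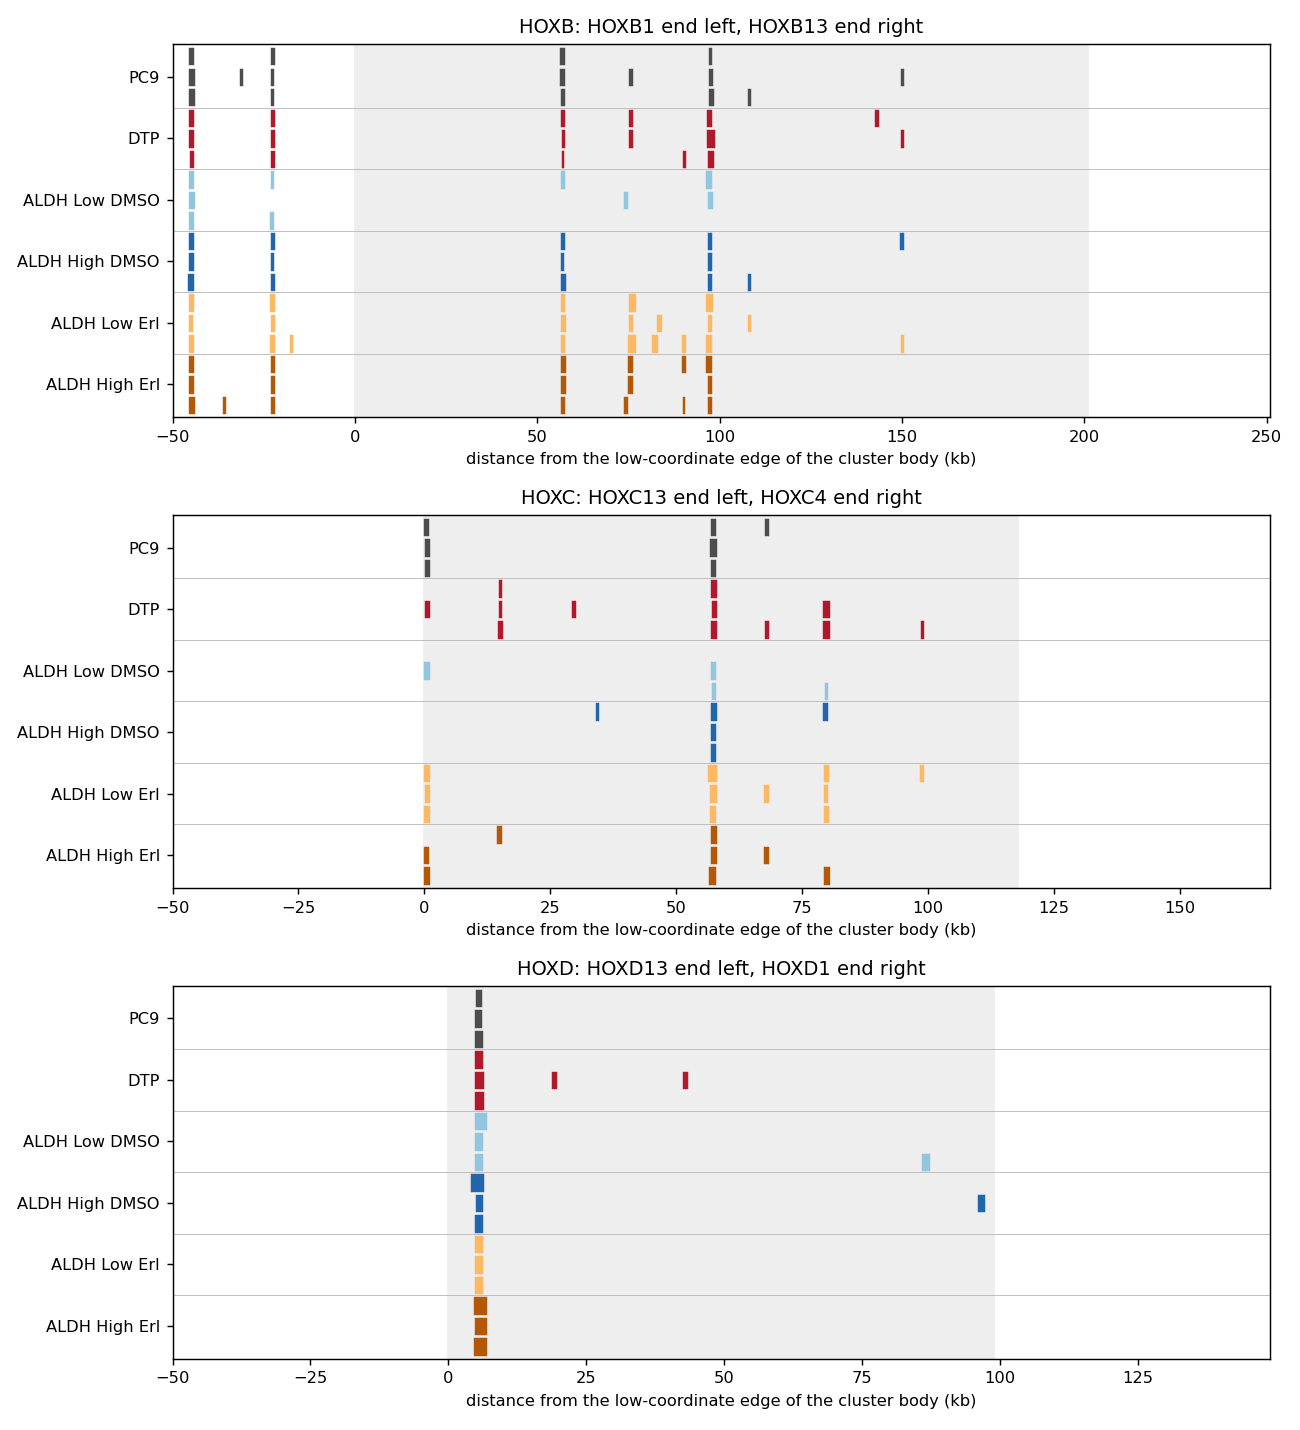
Peaks of the 18 libraries in the HOXB, HOXC and HOXD windows, drawn as for HOXA: distance from the low-coordinate edge of the body (kb) on the horizontal axis, 1 row per library (a to c from top to bottom), 1 bar per peak, body shaded. The HOXB13 end, beyond the bars at 150 kb, has no peak, and HOXD has a single recurrent column, at 6 kb.

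Outside the bodies, 3 regions were held by all 18 libraries. They were chr7:27110943-27112296, 19.7 kb beyond the HOXA2 end, chr7:27386117-27387321, 136 kb beyond the HOXA13 end, and chr17:46560333-46561854, 44.1 kb beyond the HOXB1 end. At the first, DTP a, b and c called 528, 439 and 597 bp and the other 15 libraries called 690 to 1195 bp, with no overlap. When peaks had to cover at least 50% of a region, this region counted as lost in DTP against PC9. At chr7:27386117-27387321 the percentile ran from 33.5 in ALDH_Low_DMSO c to 90.6 in DTP a. At chr17:46560333-46561854 it ran from 19.0 in ALDH_Low_Erl a to 87.6 in PC9 b.

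For each pair of groups, a region was called gained if it was held by 3 of 3 libraries in the first-named group and 0 of 3 in the other, and lost if the counts were the other way round. An exact two-sided test of 3 against 3 libraries cannot go below p = 0.1, so these counts carry no p. In the 5 comparisons, 10 different HOX regions were separated in this way, 8 of them outside the bodies of the clusters, 1 in the HOXB body and 1 in the HOXC body. Comparisons that use the same group are not independent: each sorted group entered 2 of them.

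**Figure D5:**
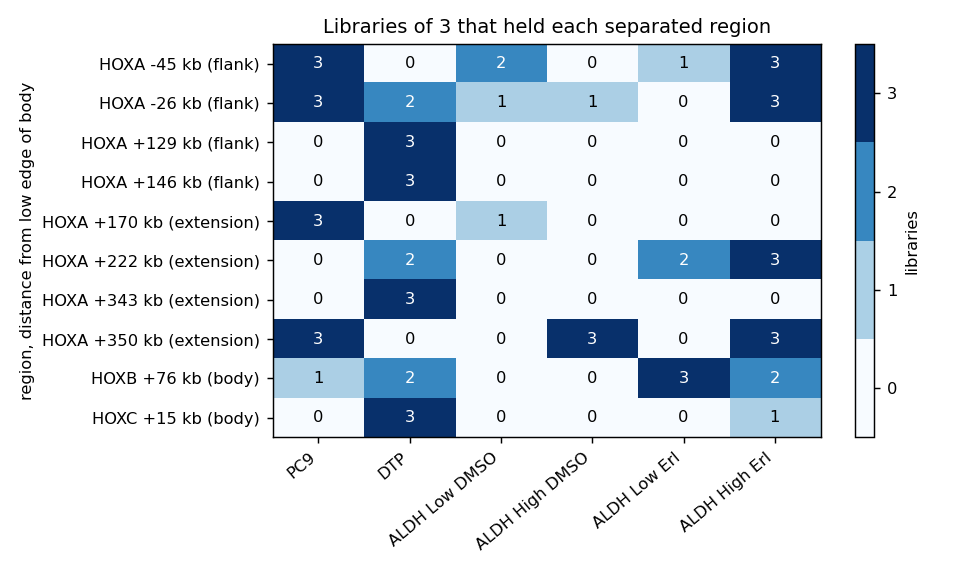
Number of libraries (0 to 3, colour and digit) in each group (horizontal axis) that held the 10 HOX regions separated in at least 1 comparison. Rows name the cluster, the distance from the low-coordinate edge of its body and the part of the window. The HOXA regions at 129, 146 and 343 kb were held by 3 DTP libraries and no other, and the HOXA region at 350 kb by all PC9 and ALDH-high libraries and no other.

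In DTP against PC9, the survivors of the drug against the vehicle-treated line, 4 of the 45 HOX regions held by either group were gained and 3 were lost. The gained share was 8.89%, against a background of 6.75% of all regions, and the lost share was 6.67%, against 3.68%. Of these, 1 gained region and no lost region lay in a body, of 24 body regions held, and 15 HOX regions were held by all 6 libraries. The gained HOXA regions chr7:27260820-27261731 and chr7:27277206-27278088 lay 10.8 and 27.2 kb beyond the HOXA13 end, and chr7:27474832-27475819 lay 225 kb beyond it. All 3 were held by the DTP libraries and by no library of another group. Over all regions, 2.34% were held by the 3 DTP libraries and no other.

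The called width of chr7:27260820-27261731 was 634, 511 and 865 bp in DTP a, b and c, with percentiles of 4.99, 23.1 and 7.80. For chr7:27277206-27278088 the widths were 639, 668 and 883 bp and the percentiles 7.58, 30.7 and 11.5. For chr7:27474832-27475819 the widths were 766, 779 and 924 bp and the percentiles 35.1, 45.8 and 28.2. The first 2 thus stood close to the score floor in DTP a and c. The gained HOXC region, chr12:54346528-54347347, lay toward the HOXC13 end at 87.3% of the body. Its percentiles were 30.1, 14.2 and 2.15 in DTP, and ALDH_High_Erl a also held it.

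The lost regions all lay in the HOXA window outside the body. The region chr7:27086142-27087503, 44.5 kb beyond the HOXA2 end, had percentiles of 44.1, 46.2 and 10.9 in PC9. The region chr7:27301483-27302206, 51.5 kb beyond the HOXA13 end, had percentiles of 3.25, 12.6 and 2.12. The region chr7:27481805-27482831, 232 kb beyond the HOXA13 end, had 31.5, 57.4 and 62.4, the highest of the 3 in PC9 b and c. When peaks had to cover at least 50% of a region, chr7:27481805-27482831 was still lost. In that setting chr7:27086142-27087503 and chr7:27301483-27302206 were no longer separated. With scores of at least 100 on the deposited scale, 2 of the 7 separated regions remained, chr7:27474832-27475819 gained and chr7:27481805-27482831 lost. With lists of equal size none of the 7 remained, and the region 19.7 kb beyond the HOXA2 end was the 1 separated, as lost.

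In the ALDH-low fraction, erlotinib against DMSO separated 1 of 39 HOX regions as gained (2.56%, against a background of 6.82%) and none as lost (background 0.887%). The gained region was chr17:46680983-46682792, in the HOXB body at 37.8% from the HOXB1 end. ALDH_Low_Erl a, b and c called it at 1669, 995 and 1786 bp, with percentiles of 31.2, 43.4 and 56.5. ALDH_High_Erl a and b called it at 967 and 944 bp, with percentiles of 28.6 and 30.2, and ALDH_High_Erl c did not. DTP a and b held it at 15.8 and 26.5, PC9 b at 2.81, and no sorted DMSO library held it. Leaving out ALDH_Low_Erl b or ALDH_Low_DMSO a, b or c raised the count of separated HOX regions from 1 to between 2 and 4. With a library left out the rule is looser, and the count could not fall.

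In the ALDH-high fraction, erlotinib against DMSO separated 2 of 39 HOX regions as gained (5.13%, background 4.52%) and none as lost (background 0.998%). They were chr7:27086142-27087503, the HOXA region lost in DTP, and chr7:27353500-27354545, 103 kb beyond the HOXA13 end. The second was called at percentiles of 6.36, 18.3 and 2.72 in ALDH_High_Erl, of 22.3 and 28.7 in ALDH_Low_Erl a and c, and of 10.8 and 8.78 in DTP b and c. No library in DMSO, sorted or unsorted, held it. Neither region was separated with scores of at least 100, or with lists of equal size. Without ALDH_High_Erl c the count rose to 4, under a looser rule by which it could not fall.

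Over the 12 sorted libraries, treatment was tested region by region with an exact conditional permutation test, two-sided, that exchanged treatment labels within each ALDH fraction, with a threshold of 0.05. In this design 6480 of all regions could pass the threshold. Among these, 42.8% were held by more erlotinib libraries and 5.56% by fewer at an unadjusted p below 0.05, and 48.4% had an adjusted p below 0.05. Of the 5 HOX regions among them, 2 passed, a share to be read against that background. Both chr17:46680983-46682792 in HOXB and chr7:27353500-27354545 beyond HOXA13 were held by 5 of 6 erlotinib and 0 of 6 DMSO libraries (exact conditional permutation p = 0.02, Benjamini-Hochberg adjusted p = 0.0413 over the 6480 regions). The call does not survive a wider adjustment. Over all 49820 regions held by some but not all of the 12 libraries, the adjusted p of this exact test was 0.318 for both regions. Over the alternatives in which it could be computed, it ran from 0.0368 to 0.318 for the HOXB region and from 0.0392 to 0.318 for the HOXA region. It exceeded 0.05 for 1 or both regions on leaving out any 1 library, and with lists of equal size neither region could reach the threshold. Within each fraction the erlotinib lists were longer. They had 36570 ± 4045 peaks in ALDH_Low_Erl, against 26343 ± 108 in ALDH_Low_DMSO (SD, n = 3). In ALDH_High_Erl they had 38542 ± 3660, against 31210 ± 1395 in ALDH_High_DMSO. Beyond the lists of equal size, the part of list length in this test and its background was not tested. The other 3 HOX regions tested had exact p-values of 0.59 to 1, among them chr7:27086142-27087503, which 4 of 6 erlotinib and 2 of 6 DMSO libraries held.

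ALDH-high against ALDH-low cells separated 1 of 32 HOX regions under DMSO as gained (3.12%, background 1.28%) and none as lost (background 0.14%). Under erlotinib 2 of 42 were gained (4.76%, background 0.893%) and none was lost (background 0.446%). The region chr7:27481805-27482831, 232 kb beyond the HOXA13 end, was gained under both treatments. Its called width was 774, 596 and 850 bp in ALDH_High_DMSO, with percentiles of 4.97, 41.0 and 45.2, and 651, 715 and 576 bp in ALDH_High_Erl, with percentiles of 13.7, 31.3 and 13.7. The second region gained under erlotinib was chr7:27105494-27106487, 25.5 kb beyond the HOXA2 end, with percentiles of 44.4, 26.0 and 38.8 in ALDH_High_Erl. PC9 held both in all 3 libraries. None of the separated regions lay in a cluster body.

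The same exact design, with ALDH labels exchanged within each treatment, could pass the threshold for 2210 regions. Of these, 4.52% were held by more ALDH-high libraries and 0.362% by fewer at an unadjusted p below 0.05, and 0% had an adjusted p below 0.05. Among the 4 HOX regions testable, 1 had an unadjusted p below 0.05. The region chr7:27481805-27482831 was held by 6 of 6 ALDH-high and 0 of 6 ALDH-low libraries (exact conditional permutation p = 0.005, the smallest the design allows, adjusted p = 0.409, with a range of 0.227 to 1 over the alternatives). It thus failed the correction. The region chr7:27105494-27106487 was held by 4 against 1 libraries (exact p = 0.26). The ALDH-low lists under DMSO were also the shortest of the study, at 26225 to 26438 peaks, against 30336 to 32819 in ALDH_High_DMSO. The ALDH_Low_Erl lists had 32583 to 40670 peaks and the DTP lists 42204 to 45241 peaks, and no library of these groups held the region. With every list trimmed to 26225 peaks, chr7:27481805-27482831 was held by 3 more ALDH-high than ALDH-low libraries, in place of 6 (exact p = 0.2). Beyond this alternative, the part of list length in the difference was not tested.

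A single group held 21 of the 58 HOX regions (36.2%), against 28.9% of all regions. DTP alone held 8 of the 58 regions (13.8%, against 11% of all regions), ALDH_Low_Erl 5 (8.62%, against 4.46%), ALDH_High_DMSO 3 (5.17%, against 2.15%), PC9 2 (3.45%, against 5.51%), ALDH_High_Erl 2 (3.45%, against 4.38%) and ALDH_Low_DMSO 1 (1.72%, against 1.39%). A stricter count took regions that every library of 1 group called and that no library outside it called. DTP had 3 such HOX regions, the HOXA regions named above (5.17%, against 2.34% of all regions). Each other group had 0. Over all regions the share was 0.513% in PC9, 0.0994% in ALDH_Low_Erl, 0.0289% in ALDH_High_Erl and 0.00126% in either sorted DMSO group. The contrast of DTP with the other groups was thus also present over all regions. DTP-only regions in the bodies were called in 1 library each.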

How the data were processed

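ATAC-seq peaks of PC9 cells were analysed in 18 libraries, grouped by the sample labels. Per the submitters' processing notes, the authors' tools were BWA and MACS 1.4.2, with the build hg19. Trimming, duplicate removal, read shifting and calling parameters were not given in these sources. Each library had 1 deposited peak list, with a deposited score per peak whose scale is not stated and whose minimum over all lists was 70. Scores served only to rank or filter within a list. Peaks on the 22 autosomes and X that shared at least 1 bp were merged into regions with Python 3.11.15, pandas 2.3.3 and numpy 2.4.6. A library held a region if it had a peak there. Exact conditional permutation tests used the 400 label assignments of the 12 sorted libraries, with Benjamini-Hochberg adjustment over regions that could reach 0.05, and were checked on simulated data. Read depth is unknown and no interval could be given.

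The HOX genes, windows and lists were chosen with earlier results of these data known. Named regions were those of the bodies held by all libraries of a group, and those outside that were separated in a comparison or held by all libraries. Others were chosen after their values were seen. Without an hg19 annotation, no region was assigned to a gene, and the planned lists of HOX cofactors, regulators and cell type markers were not used, so the cell line was taken from the labels. Alternatives were a score of at least 100, peaks covering at least 50% of a region, lists of equal size, merging across 200 bp, bodies alone, leaving out each library and a replicate block. An adjustment over all variable regions was added after the data were seen. Of the 15 same-letter correlations of deviations from group means, none exceeded 0.1 (range -0.0102 to 0.0125), so the letters were not taken to pair libraries. At most 0.0284% of the peaks of 2 lists had identical bounds, so no library was a copy of another.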

Additional observations from a re-analysis of the deposited data

Results flagged for a closer look

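The HOXA region chr7:27086142-27087503, 44.5 kb beyond the HOXA2 end, was singled out because 2 comparisons of erlotinib with vehicle separated it in opposite directions. DTP minus PC9 gave a difference of -3 libraries (0 of 3 against 3 of 3), and ALDH_High_Erl minus ALDH_High_DMSO gave 3 (3 of 3 against 0 of 3). The difference between the 2 comparisons was not tested. Exposure lasted 8 days in the first and 12 h in the second, and only the second was sorted. ALDH_Low_DMSO a and b and ALDH_Low_Erl a also held the region. Neither comparison separated it with scores of at least 100 or with lists of equal size. When peaks had to cover at least 50% of a region, DTP against PC9 no longer separated it. ALDH_High_Erl against ALDH_High_DMSO still separated it as gained in that setting. Over the sorted libraries the exact conditional permutation test of treatment gave p = 0.59 (adjusted p = 0.73).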

How the results depend on the processing

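The counts of separated HOX regions depended on the processing. Leaving out a library loosens the rule to all of the libraries that remain, so a count of separated regions could only stay or rise. The bodies alone are a part of the same calls, so that count could only stay or fall. Neither setting could therefore show whether a separated region holds. In DTP against PC9 the 7 regions (4 gained, 3 lost) became 2 with scores of at least 100 (1 gained, 1 lost), 1 with lists of equal size (0 gained, 1 lost) and 1 in the bodies alone (1 gained, 0 lost), and ran from 7 to 10 on leaving out a library. In ALDH_Low_Erl against ALDH_Low_DMSO the 1 region became 2 with 50% cover and 0 with lists of equal size, and ran from 1 to 4 on leaving out a library. In ALDH_High_Erl against ALDH_High_DMSO the 2 regions became 0 with lists of equal size and 0 in the bodies alone, and ran from 2 to 4 on leaving out a library, with 4 without ALDH_High_Erl c. In ALDH_High_DMSO against ALDH_Low_DMSO the 1 region became 0 with scores of at least 100, 0 with lists of equal size and 0 in the bodies alone, and ran from 1 to 2, with 2 without ALDH_Low_DMSO a or c. In ALDH_High_Erl against ALDH_Low_Erl the 2 regions became 1 with scores of at least 100, 1 with lists of equal size and 0 in the bodies alone, and ran from 2 to 3. With scores of at least 100, ALDH_High_Erl against ALDH_High_DMSO again gave 2 regions, but neither of the same ones. The main regions of the other 4 comparisons were all gained, as were those left under these alternatives other than leaving out a library. The 2 HOX regions past the treatment test became 1 with scores of at least 100 and 0 with lists of equal size, with the replicate block or with adjustment over all variable regions, and ran from 0 to 1 on leaving out a library. The replicate block, which paired equal letters, gave an exact p of 0.0625 for both regions, the smallest it could give them. It left the ALDH test at 0 HOX regions. Of the 58 HOX regions, 34 were left with scores of at least 100 and 33 with lists of equal size. Apart from the counting rules given above for a left-out library and for the bodies alone, the cause of these changes was not tested. The score limit and the equal lists also leave a smaller number of peaks. The missing read depth means that an uncalled region cannot be told from one that was sequenced too little.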
